A study of Mus musculus with 40 samples.

Results

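The 10 genes described here, Cpa3, Gzmb, Cma1, Tpsb2, Mcpt8, Srgn, Hdc, Ms4a2, Fcer1a and Mitf, are genes of mast cells and basophils, taken by symbol from the 26411 genes counted in each library. They were chosen by their measured levels in fetal liver LSK cells, in which Cpa3 was lower in the Kat6aE/E libraries, so their LSK values, fitted differences and intervals are given as a description. Calls of members in LSK from the fit over all genes are counted below beside their background. They are counted again for the alternative settings, and nothing is read from any of these counts. LSK cells are the lineage-negative, SCA-1-positive, c-KIT-positive fraction that holds haematopoietic stem cells and early progenitors, sorted here from C57BL/6J fetal livers at E14.5. There were 16 LSK libraries, 1 per fetus and 4 each of WT, Kat6aE/E, Kat6bE/E and Kat6aE/E;Kat6bE/E fetuses (the double mutant). Kat6aE/E is homozygous for the G656E substitution and Kat6bE/E for G577E, each a glycine to glutamate change in the acetyltransferase domain of KAT6A or KAT6B that every cell of the fetus carries. A further 24 libraries came from single whole E9.5 embryos, 4 each of those 4 genotypes and of Kat6a-/- and Kat6b-/- null embryos. The question put to the genes was whether a loss of KAT6A or KAT6B acetyltransferase activity went with a different level of each in each setting.

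Mast cells and basophils store preformed mediators in granules and release them when IgE on their surface is cross-linked. The granules hold proteases and the histamine made by HDC, packed on the proteoglycan serglycin, the product of Srgn. The IgE receptor has an alpha chain that binds IgE (Fcer1a), a beta chain that amplifies the signal (Ms4a2) and a shared gamma chain (Fcer1g). Both cell types arise from stem and progenitor cells, and RNA of Cpa3, Srgn and Hdc is already present in multipotent and myeloid progenitors before any granulated cell is formed. GATA2 is a transcription factor needed for the mast cell and basophil lineages, and MITF for mast cells.

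LSK libraries held 12270376 to 59216547 counts and embryo libraries 8401990 to 23339359. Levels are in CPM, counts scaled to the total of the genes tested and by the trimmed mean of M values. Of the LSK libraries, 4 stood apart: Kat6aE/E replicate 2 and double mutant replicates 2, 3 and 4 detected 11883 to 12700 genes, against 14401 to 15448 in the other 12. The same 4 had the highest summed levels of 6 erythroid markers, 3703 to 8398 CPM against 333 to 3168 CPM, and came from 2 litters of their own, the double mutant ones from 1 litter, so that litter and genotype cannot be told apart in them. Litter and genotype cannot be told apart in most other LSK libraries either. The exceptions were WT replicates 1 to 3 with Kat6aE/E replicate 1, and Kat6bE/E replicate 1 with double mutant replicate 1, which were littermates. Values that rest on the 4 libraries with fewer genes detected are also given without them. That leaves 1 double mutant library, assumed in the fit to vary like the other groups. Kit, which encodes c-KIT, stood at 351 to 552 CPM in LSK libraries and at 31.0 to 48.3 CPM in embryos, while Ly6a, which encodes SCA-1, was low in LSK libraries at 0.937 to 10.3 CPM. Kat6a was read at 128 to 198 CPM and Kat6b at 22.3 to 40.8 CPM in all LSK libraries, which does not check the point mutations because counts per gene do not show a single base. Xist, an RNA of female cells, was at 926 to 1623 CPM in WT replicate 3, Kat6bE/E replicate 1, Kat6aE/E replicate 2 and double mutant replicates 2 and 4. It was at 0.0902 to 2.39 CPM in the other LSK libraries, and Xist as a covariate is among the alternatives below.

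Per kilobase of transcript, the order of the members in WT LSK libraries was Srgn, with a mean RPKM (CPM per kilobase of transcript) of 164, Hdc at 29.1 RPKM, Cpa3 at 24.5 RPKM, Mcpt8 at 3.19 RPKM, Ms4a2 at 1.48 RPKM, Mitf at 0.941 RPKM, Tpsb2 at 0.587 RPKM, Cma1 at 0.427 RPKM, Gzmb at 0.310 RPKM and Fcer1a at 0.0324 RPKM. The proteases Tpsb2, Cma1 and Gzmb and the IgE receptor alpha chain were thus at the low end. Srgn, Hdc and Cpa3, known from progenitors, were at the high end, and the protease Mcpt8 came next.

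Cpa3 encodes carboxypeptidase A3, a granule protease that trims peptides from their C-terminal end. The gene (Entrez Gene 12873) lies at chr3:20269774-20296362 in GRCm39, on the minus strand, in 11 exons. It overlaps Gm31320 on the other strand, and since the libraries kept no strand, reads of the pair cannot be told apart where they overlap. The 250 bases before the start of Cpa3, chr3:20242182-20242431 of GRCm38.p6 on the minus strand (RefSeq), are shown because Cpa3 carries the lead difference. Capitals mark AGATAA, the letters read by GATA factors, and TGTGGT, those read by RUNX factors, each on either strand.
Cpa3 promoter: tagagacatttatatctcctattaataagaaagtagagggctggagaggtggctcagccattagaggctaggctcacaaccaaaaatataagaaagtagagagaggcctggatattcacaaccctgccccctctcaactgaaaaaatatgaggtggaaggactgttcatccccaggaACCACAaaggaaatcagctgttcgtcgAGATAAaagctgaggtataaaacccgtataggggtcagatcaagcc
The AGATAA began 46 bases before the start and ACCACA, the reverse complement of TGTGGT, 73 bases before it. AGATAA on either strand was present in 11.2% of all 32851 RefSeq mouse promoters of 300 bases (250 before the start and 50 after it). It was present in 3 of the 12 promoters of the 9 members in the table, namely those of Cpa3, Ms4a2 and Fcer1a. TGTGGT was present in 16.8% of all promoters and in 7 of the 12 member promoters. Such matches are letters only and do not show binding.

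In LSK cells Cpa3 was lower in every library that carried Kat6aE/E than in every library that did not. It stood at 33.0, 32.0, 34.4 and 43.1 CPM in WT replicates 1 to 4, and at 37.7, 31.0, 35.8 and 28.1 CPM in Kat6bE/E replicates. It stood at 16.1, 23.8, 17.6 and 17.7 CPM in Kat6aE/E replicates, and at 16.2, 15.1, 25.7 and 19.0 CPM in double mutant replicates. The highest of the 8 libraries with Kat6aE/E lay below the lowest of the 8 without it, and the 2 highest among those 8 were from the libraries with fewer genes detected. Group means were 35.6 ± 5.11 CPM in WT, 33.2 ± 4.36 in Kat6bE/E, 19.0 ± 4.79 in the double mutant and 18.8 ± 3.44 in Kat6aE/E (SD, n = 4). In this order WT and Kat6bE/E overlapped, as did the double mutant and Kat6aE/E, and the gap lay between those pairs. The values rested on 239 to 2472 counts per library.

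**Figure D1:**
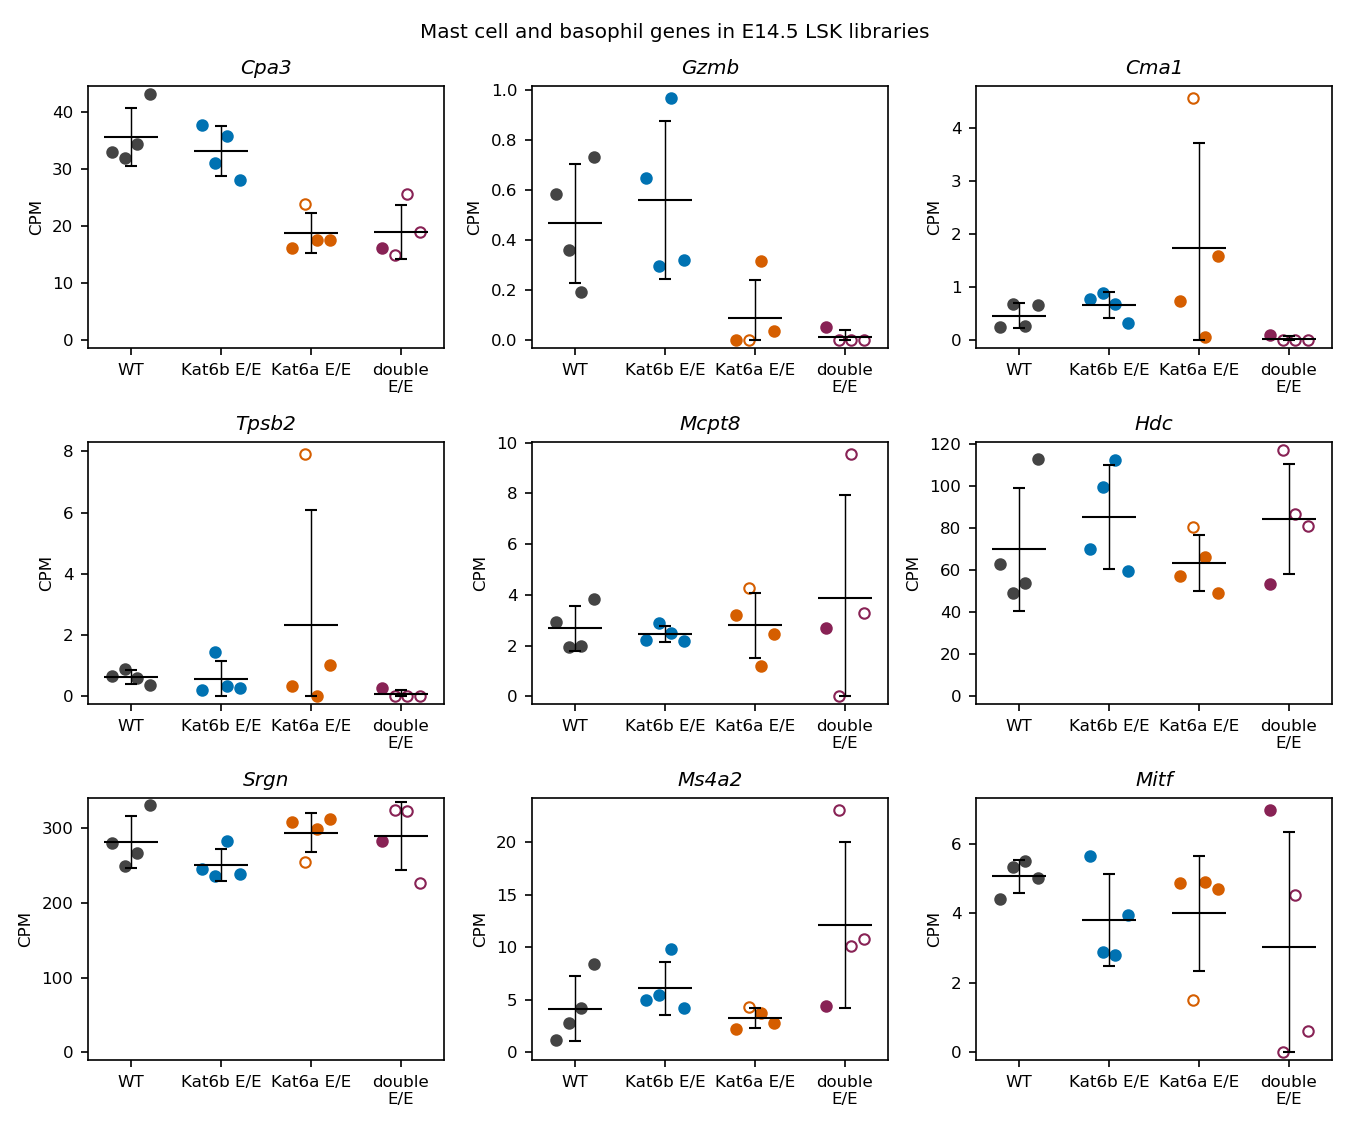
Level in CPM (linear vertical axes, 1 panel per gene) of the 9 members that passed the filter on low counts, in the 4 LSK libraries of each genotype, with the mean as a bar and the SD as an error line cut at 0. Open circles are the 4 libraries with fewer genes detected. For Cpa3 the 8 libraries with Kat6aE/E lie at 15.1 to 25.7 CPM and the 8 without it at 28.1 to 43.1 CPM, and no other member shows such a gap over all 4 genotypes.

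The model fitted to all 16 libraries (limma, with litter as a random block and 4 surrogate variables for unexplained variation) gave log2 fold changes of Cpa3 of -1.04 (SE 0.11, 95% interval -1.28 to -0.80) in Kat6aE/E against WT, a 2.06-fold lower level. Against WT the double mutant differed by -1.24 (SE 0.18, interval -1.63 to -0.85) and Kat6bE/E by -0.24 (SE 0.12, interval -0.50 to 0.01). Adding Kat6aE/E to Kat6bE/E went with -1.001 (SE 0.16, interval -1.34 to -0.66), adding Kat6bE/E to Kat6aE/E with -0.20 (SE 0.20, interval -0.63 to 0.22), and Kat6aE/E differed from Kat6bE/E by -0.80 (SE 0.13). The double mutant departed from the sum of the single mutant differences by 0.04 (SE 0.20). These comparisons share libraries and are not independent of each other.

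Without the 4 libraries with fewer genes detected, Cpa3 was at 16.1 to 17.7 CPM in 3 Kat6aE/E libraries and at 16.2 CPM in the 1 double mutant library left, and the log2 fold change of Kat6aE/E against WT was -1.06 with 0 surrogate variables. Cpa3 could also be compared within litters, since WT replicates 1 to 3 and Kat6aE/E replicate 1 were littermates, as were Kat6bE/E replicate 1 and double mutant replicate 1. In the first litter Cpa3 was at 16.1 CPM in the Kat6aE/E fetus and at 32.0 to 34.4 CPM in the 3 WT fetuses. In the second it was at 16.2 CPM in the double mutant and 37.7 CPM in the Kat6bE/E fetus. The log2 differences within these litters were -1.03 and -1.21, each from 1 mutant fetus. These fetuses are also in the fit to all libraries, and the part of litter in the Cpa3 values was not tested. Summed erythroid markers were at 598 to 2314 CPM in WT, 333 to 3703 CPM in Kat6aE/E and 775 to 8398 CPM in double mutant libraries, which all overlapped. Over the 16 LSK libraries the globin genes Hba-a1 and Hbb-bt had means of 1302 and 791 CPM, and this sum a mean of 2466 CPM. The erythroid sum is thus mostly globin RNA. The summed level of 4 B cell markers (Cd79a, Cd79b, Ebf1 and Pax5) was at 63.6 to 111 CPM in WT and 70.2 to 85.5 CPM in Kat6bE/E. Both groups with Kat6aE/E had lower ranges, 44.0 to 70.9 CPM in Kat6aE/E and 23.5 to 49.0 CPM in double mutant libraries. The Kat6aE/E range overlapped those of WT and Kat6bE/E. Double mutant replicate 3, 1 of the libraries with fewer genes detected, had the highest Cpa3 of its group, 25.7 CPM, and the lowest sum, 23.5 CPM. The double mutant did not overlap WT in this sum, and its replicates 2 and 3 each had 2 of the 4 markers at 0 and replicate 4 had 1. Within the litters the sum was 44.0 CPM in the Kat6aE/E fetus against 63.6 to 89.8 CPM in the WT fetuses, and 49.0 CPM in the double mutant against 70.2 CPM in the Kat6bE/E fetus. Over the 16 libraries the B cell marker Ebf1 had rank 3 among all genes tested by Spearman correlation with Cpa3 (0.82). Its Pearson correlation with Cpa3 was 0.67, and within genotypes 0.33. The part of B cell markers in the Cpa3 values was not tested. In sorted bulk samples, fewer cells of a type and less RNA per cell cannot be told apart.

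Gzmb encodes granzyme B, a serine protease of cytotoxic lymphocytes that mast cells can also store. It lies at chr14:56496295-56499717 on the minus strand in GRCm39, in the same protease cluster as Cma1 (chr14:56178908-56182132) and Mcpt8 (chr14:56319623-56322730). The promoter, chr14:56262335-56262584 of GRCm38.p6 on the minus strand, is shown as that of the other protease gene that was low in both Kat6aE/E groups, with TGTGGT in capitals. TGTGGT began 93 and 34 bases before the start, and AGATAA was not among these letters.
Gzmb promoter: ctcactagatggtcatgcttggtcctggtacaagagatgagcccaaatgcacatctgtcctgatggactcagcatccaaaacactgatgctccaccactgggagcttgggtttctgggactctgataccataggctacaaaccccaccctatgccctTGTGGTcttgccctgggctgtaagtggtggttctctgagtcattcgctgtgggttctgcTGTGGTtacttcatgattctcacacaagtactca

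Gzmb was a rare RNA in all groups, with 125 counts over the 16 libraries. It was read at 0.587, 0.361, 0.192 and 0.733 CPM in WT replicates and at 0.649, 0.299, 0.969 and 0.323 CPM in Kat6bE/E replicates. In Kat6aE/E replicates it was at 0, 0, 0.318 and 0.0368 CPM, and in double mutant replicates at 0.0539, 0, 0 and 0 CPM. In counts this was 69 in WT, 44 in Kat6bE/E, 11 in Kat6aE/E (10 of them in replicate 3) and 1 in the double mutant. A library at 0 allows up to 3 counts, which is 0.0523 to 0.256 CPM over the LSK libraries, a range that reaches above the lowest WT library. The double mutant did not overlap WT or Kat6bE/E, while Kat6aE/E replicate 3 lay within the WT range. The fitted log2 fold change of Kat6aE/E against WT was -2.86 (SE 0.82), a value that depends on the prior count added to libraries at 0 and is no bound. Of 5 markers of natural killer and cytotoxic cells, which also use granzyme B, the summed level was 21.5 to 30.8 CPM in Kat6aE/E, 27.6 to 36.2 CPM in double mutant and 21.8 to 32.9 CPM in WT libraries, with 1 to 4 of the 5 at 0 in these libraries. Over the 16 LSK libraries Nkg7 alone had a mean of 26.0 CPM, and the sum a mean of 27.0 CPM. The sum is thus nearly that of 1 gene and does not show the level of such cells. Its part in the Gzmb values was not tested.

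Cma1 encodes the mast cell chymase and Tpsb2 a mast cell tryptase, at chr17:25585170-25588079 on the plus strand. Cma1 was at 0.251 to 0.676 CPM in WT and at 0.323 to 0.896 CPM in Kat6bE/E libraries. In Kat6aE/E replicates it was at 0.735, 4.55, 0.0636 and 1.58 CPM, and in double mutant replicates at 0.108, 0, 0 and 0 CPM. Kat6aE/E libraries thus spread above and below WT, whereas the double mutant held 2 counts in all, against 66 in WT. Tpsb2 was at 0.366 to 0.902 CPM in WT and at 0.203 to 1.44 CPM in Kat6bE/E libraries. In Kat6aE/E replicates it was at 0.339, 7.91, 0 and 1.03 CPM and in double mutant replicates at 0.270, 0, 0 and 0 CPM. The highest Cma1 and the highest Tpsb2 came from the same library, Kat6aE/E replicate 2, which was among those with fewer genes detected. The 3 double mutant libraries at 0 for Gzmb, Cma1 and Tpsb2 were the others of that kind, and the part of the lower number of genes detected in these zeros was not tested. Without the 4 libraries, Cma1 was at 0.0636 to 1.58 CPM in 3 Kat6aE/E libraries and at 0.108 CPM in the 1 double mutant library, and Tpsb2 at 0 to 1.03 CPM and 0.270 CPM.

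Mcpt8 encodes a basophil granule protease, and its levels did not separate the genotypes. It was at 1.94 to 3.84 CPM in WT, 2.19 to 2.89 CPM in Kat6bE/E and 1.21 to 4.28 CPM in Kat6aE/E libraries. Double mutant replicates were at 2.70, 0, 9.54 and 3.30 CPM and so held both the lowest and the highest library. The fitted differences from WT were -0.33 (SE 0.36) on the log2 scale in Kat6aE/E and -0.17 (SE 0.55) in the double mutant. The protease genes therefore did not move as 1 group, with Cpa3 low in every library with Kat6aE/E, Gzmb low in all of those but Kat6aE/E replicate 3, Cma1 and Tpsb2 at 0 in 3 of the 4 double mutant libraries, and Mcpt8 overlapping in all comparisons.

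Of the matrix and histamine genes, neither Srgn nor Hdc followed Cpa3. Srgn was at 279.8, 249, 267 and 330.0 CPM in WT replicates and at 308, 255, 299 and 312 CPM in Kat6aE/E replicates. Kat6bE/E libraries spanned 236 to 282 CPM and double mutant libraries 226 to 323 CPM. The groups overlapped in every comparison, and the log2 fold change of Kat6aE/E against WT was 0.09 (SE 0.08, interval -0.08 to 0.26). Hdc, which encodes the enzyme that makes histamine, was at 63.1, 49.2, 54.0 and 113 CPM in WT replicates. It was at 49.0 to 80.3 CPM in Kat6aE/E, 59.4 to 112 CPM in Kat6bE/E and 53.2 to 117 CPM in double mutant libraries. The fitted differences from WT were -0.23 (SE 0.21) in Kat6aE/E and -0.53 (SE 0.33) in the double mutant on the log2 scale, and with 0 surrogate variables the latter became 0.04. Without the 4 libraries with fewer genes detected, Hdc was at 49.0 to 66.4 CPM in 3 Kat6aE/E libraries and at 53.2 CPM in the 1 double mutant library. WT replicate 4, the most deeply sequenced library, was the highest of the WT libraries for Hdc, Cpa3, Srgn, Ms4a2, Mcpt8 and Gzmb. Its eosinophil markers summed to 115 CPM over 4 genes, against 20.8 to 26.2 CPM in the other 3 WT libraries, and their part in these values was not tested.

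Of the genes of the IgE receptor, Ms4a2 was read in all 16 LSK libraries, with 2314 counts in all, as was Fcer1g with 14983, whereas Fcer1a was nearly undetected. Ms4a2 lies at chr19:11592887-11601083 on the minus strand in GRCm39. Its promoter, chr19:11623720-11623969 of GRCm38.p6 on the minus strand, is shown because it holds AGATAA 3 times, more than any other member promoter in the table.
Ms4a2 promoter: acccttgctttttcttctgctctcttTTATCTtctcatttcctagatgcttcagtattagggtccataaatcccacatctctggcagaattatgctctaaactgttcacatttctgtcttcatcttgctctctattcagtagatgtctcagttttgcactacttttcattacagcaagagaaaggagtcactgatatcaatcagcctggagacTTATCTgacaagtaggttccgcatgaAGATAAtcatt
The matches, in capitals, began 224, 37 and 11 bases before the start. Ms4a2 was at 1.13, 2.84, 4.27 and 8.43 CPM in WT and at 2.20, 4.34, 3.78 and 2.80 CPM in Kat6aE/E replicates. It was at 4.95, 5.47, 9.80 and 4.20 CPM in Kat6bE/E and at 4.42, 23.1, 10.1 and 10.8 CPM in double mutant replicates. The double mutant was the highest group, lying above all Kat6aE/E libraries, and its 3 highest libraries were those with fewer genes detected. The fitted log2 difference of the double mutant from WT was -0.29 (SE 0.65) with 4 surrogate variables and 0.87 with 0, so its direction depended on that choice. Without the 4 libraries, which leaves 1 double mutant library, it was -0.01 with 0 surrogate variables and 0.15 with 2. Eosinophil markers were at 46.2 to 187 CPM in these 3 libraries and at 29.2 CPM in double mutant replicate 1, and their part in the Ms4a2 values was not tested.

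Fcer1a (chr1:173048851-173054781, minus strand) encodes the chain that defines mast cells and basophils by binding IgE. It had 6 counts in all, 3 in WT replicate 3, 1 in WT replicate 4 and 2 in Kat6bE/E replicate 2, and 0 in the 8 libraries with Kat6aE/E. It did not pass the filter on low counts and has no fitted value. At this depth a difference in Fcer1a could not be seen, because 3 counts are the limit that a library at 0 allows.

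Mitf (chr6:97783950-97998323, plus strand) encodes a basic helix-loop-helix transcription factor that many cell types use besides mast cells. It was at 4.40, 5.32, 5.50 and 5.01 CPM in WT and at 5.64, 2.89, 2.79 and 3.94 CPM in Kat6bE/E replicates. In Kat6aE/E replicates it was at 4.86, 1.52, 4.90 and 4.71 CPM, and in double mutant replicates at 6.96, 0, 4.52 and 0.621 CPM. The 3 lowest values, 0, 0.621 and 1.52 CPM, were all from libraries with fewer genes detected, and the other Kat6aE/E and double mutant libraries lay near or above WT. The fitted difference of the double mutant from WT was -0.17 (SE 0.43) with 4 surrogate variables and -2.28 with 0. Without those libraries it was 0.26 with 0 surrogate variables and 0.35 with 2.

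**Figure D2:**
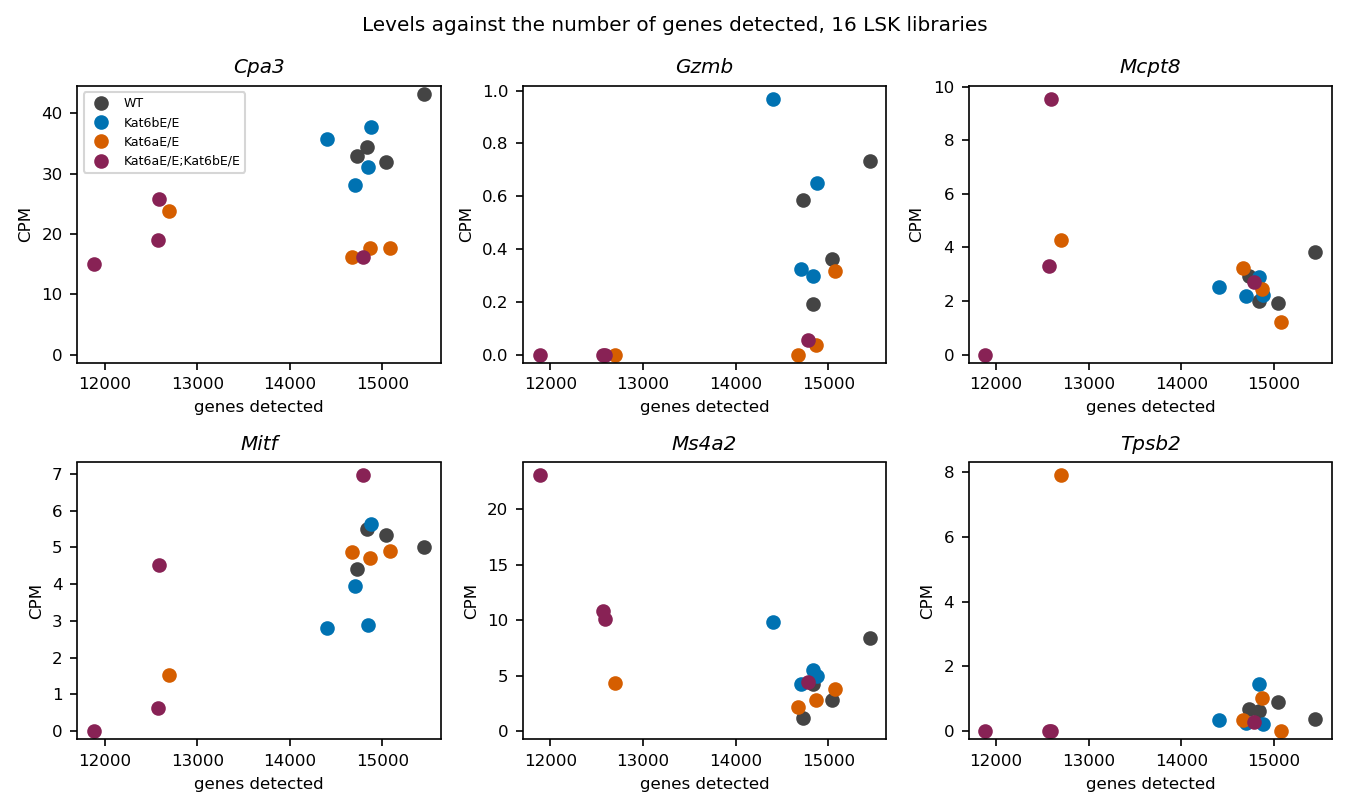
Level in CPM (vertical axes) of 6 members against the number of genes detected (horizontal axes) in each of the 16 LSK libraries, coloured by genotype. Cpa3 is low in Kat6aE/E and double mutant libraries on both sides of the gap in genes detected, while the lowest Mitf values and the highest Ms4a2 and Tpsb2 values sit among the 4 libraries at 11883 to 12700 genes.

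Over the 9 members tested, calls at an adjusted p under 0.05 (limma, Benjamini-Hochberg over 13071 genes) fell on Cpa3 alone. Against WT, 1 member was called lower in Kat6aE/E, where 0.627% of all genes were called lower, and 1 member, again Cpa3, did not overlap between the groups, where 2.21% of all genes did not overlap downwards. Against Kat6bE/E, Cpa3 was the 1 member called lower in the double mutant (0.926% of all genes) and in Kat6aE/E (0.941% of all genes). Since LSK values chose the genes, nothing is read from these counts or from those that follow for LSK. In the double mutant against WT, 0 members were called by limma (0% of all genes were called lower), and edgeR and DESeq2 each called 1. There 2 members had an unadjusted p under 0.05, beside 896 of all 13071 genes. There 4 members, Cpa3, Gzmb, Cma1 and Tpsb2, did not overlap downwards, beside 3% of all genes. Against Kat6bE/E, 3 members did not overlap in the double mutant (Cpa3, Gzmb and Cma1, beside 2.74% of all genes) and 1 in Kat6aE/E (Cpa3, beside 4.67%). Ms4a2 was the 1 member that lay wholly higher in the double mutant than in Kat6aE/E, beside 1.55% of all genes.

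For Kat6bE/E against WT and the double mutant against Kat6aE/E, limma called 0 members and 0% of all genes lower. At an unadjusted p under 0.05 there were 1 and 0 members, beside 364 and 197 of all 13071 genes, and edgeR and DESeq2 called 0 members in both. The departure from additivity likewise gave 0 members and 0% of all genes, and 0 members by edgeR and DESeq2. At an unadjusted p under 0.05 it gave 0 members, beside 652 of all genes. The median log2 fold change of the 9 members was -0.33 in Kat6aE/E, -0.53 in the double mutant and -0.08 in Kat6bE/E, all against WT. Over all genes tested the medians were -0.01, -0.03 and 0.01. With 4 surrogate variables 9 of the 9 estimates lay below 0 in the double mutant and 7 in Kat6aE/E. The count for the double mutant depended on that choice: with 0 surrogate variables Hdc was at 0.04 and Ms4a2 at 0.87, and without the 4 libraries with fewer genes detected (0 surrogate variables) Mitf was at 0.26. Mean levels in the double mutant were also above those in WT for Srgn (289 against 281 CPM), Hdc (84.3 against 69.8 CPM), Mcpt8 (3.89 against 2.68 CPM) and Ms4a2 (12.1 against 4.17 CPM).

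**Figure D3:**
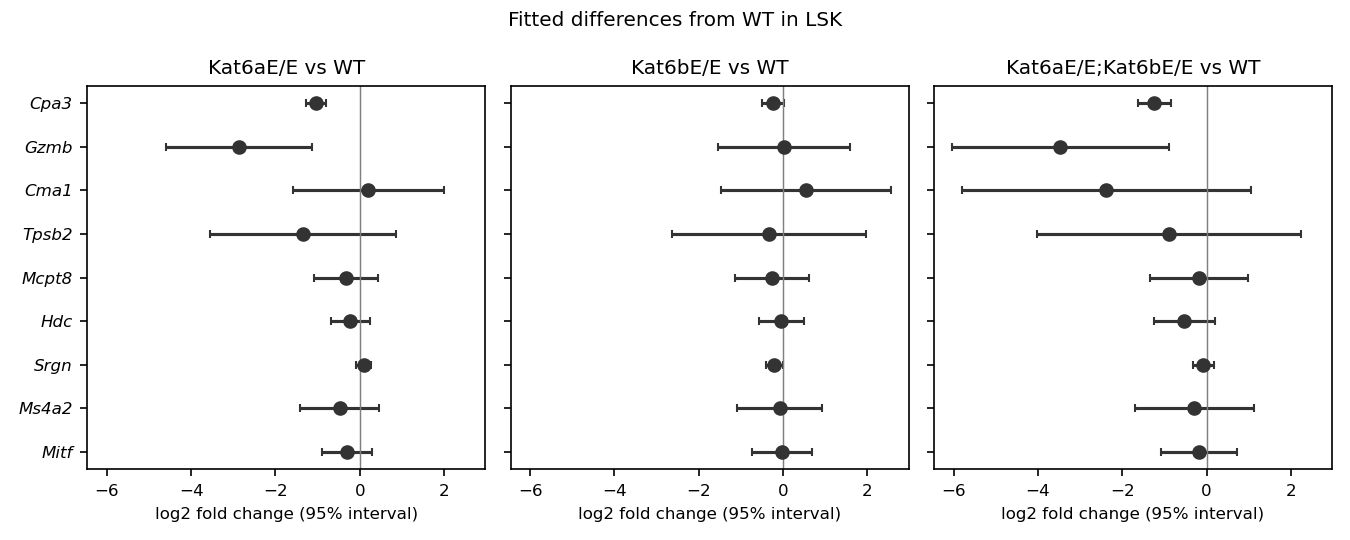
Fitted log2 fold change against WT (horizontal axes) with its 95% interval for the 9 members tested, in 1 panel for each mutant genotype in LSK. The Cpa3 intervals run from -1.28 to -0.80 in Kat6aE/E and from -1.63 to -0.85 in the double mutant, and those of Gzmb, Cma1 and Tpsb2 are wide, for genes with few counts.

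The other genes of mast cells and basophils were described from a list of 49 that holds no member: 9 granule proteases, 3 genes of granule matrix and amines, 8 of IgE receptor signalling, 12 surface receptors, 5 of lipid mediator synthesis, 9 transcription factors and 3 cytokines. Of these 37 passed the filter in LSK cells. The proteases that define mature mast cells were mostly among the 12 that did not, and Mcpt1, Mcpt9, Cma2, Mrgprb1 and Mrgprb2 were at 0 in all 16 libraries. In Kat6aE/E against WT, 2 of the 37 were lower and 3 higher at an adjusted p under 0.05 in limma, beside 0.627% and 0.734% of all genes. With 0 surrogate variables 0 of the 37 passed.

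Gata2, 1 of the 9 transcription factors listed, was lower in Kat6aE/E, at 56.0 to 82.3 CPM against 99.0 to 114 CPM in WT, and these ranges did not overlap. Bulk LSK levels do not show from which cells its RNA came. The log2 fold change was -0.57 (SE 0.076, adjusted p = 0.00353 in limma). Kat6bE/E libraries were at 90.7 to 108 CPM and double mutant libraries at 52.6 to 87.4 CPM. Gata2 thus showed the same order over the genotypes as Cpa3, with both groups that carry Kat6aE/E below both that do not. Its Pearson correlation with Cpa3 was 0.59 over the 16 libraries and 0.87 without the 4 with fewer genes detected. Both values include the difference between genotypes, and within genotypes the correlation over the 16 libraries was -0.54. In the litter with both genotypes Gata2 was at 65.5 CPM in the Kat6aE/E fetus and 105 to 114 CPM in the WT fetuses. Without Kat6aE/E replicate 1 the difference from WT was -0.45 and did not pass, with an adjusted p of 0.271 in limma. Slc18a2, the vesicular transporter that loads histamine and other amines into granules, was lower by a log2 fold change of -0.67 (SE 0.15, adjusted p = 0.0360 in limma), at 14.2 to 19.0 CPM against 24.7 to 27.7 CPM in WT. Leaving out any 1 of the 8 libraries ended this call.

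The genes that were higher in Kat6aE/E code for receptors and lipid mediator synthesis. Csf2rb encodes the beta chain shared by the receptors for IL-3, IL-5 and GM-CSF, and Csf2rb2 the mouse chain specific to IL-3. Csf2rb rose by 0.45 on the log2 scale (SE 0.063, adjusted p = 0.00400 in limma), with 102 to 141 CPM against 87.1 to 96.8 CPM in WT. Csf2rb2 rose by 0.62 (SE 0.11, adjusted p = 0.0150 in limma), with 17.8 to 20.8 CPM against 11.3 to 13.98 CPM. Neither overlapped WT, but as near-identical copies the pair may share reads. Alox5ap, which presents arachidonic acid to 5-lipoxygenase, rose by 0.38 (SE 0.088, adjusted p = 0.0413 in limma), with ranges that overlapped, 82.2 to 122 CPM against 71.5 to 107 CPM. Without Kat6aE/E replicate 1 none of the 5 passed, with log2 fold changes of 0.35 for Csf2rb, 0.58 for Csf2rb2 and 0.42 for Alox5ap. Csf2rb2 was also lost without WT replicate 4, at 0.53, and Alox5ap passed in 2 of the 8 omissions, those of WT replicate 1 and Kat6aE/E replicate 2.

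**Figure D4:**
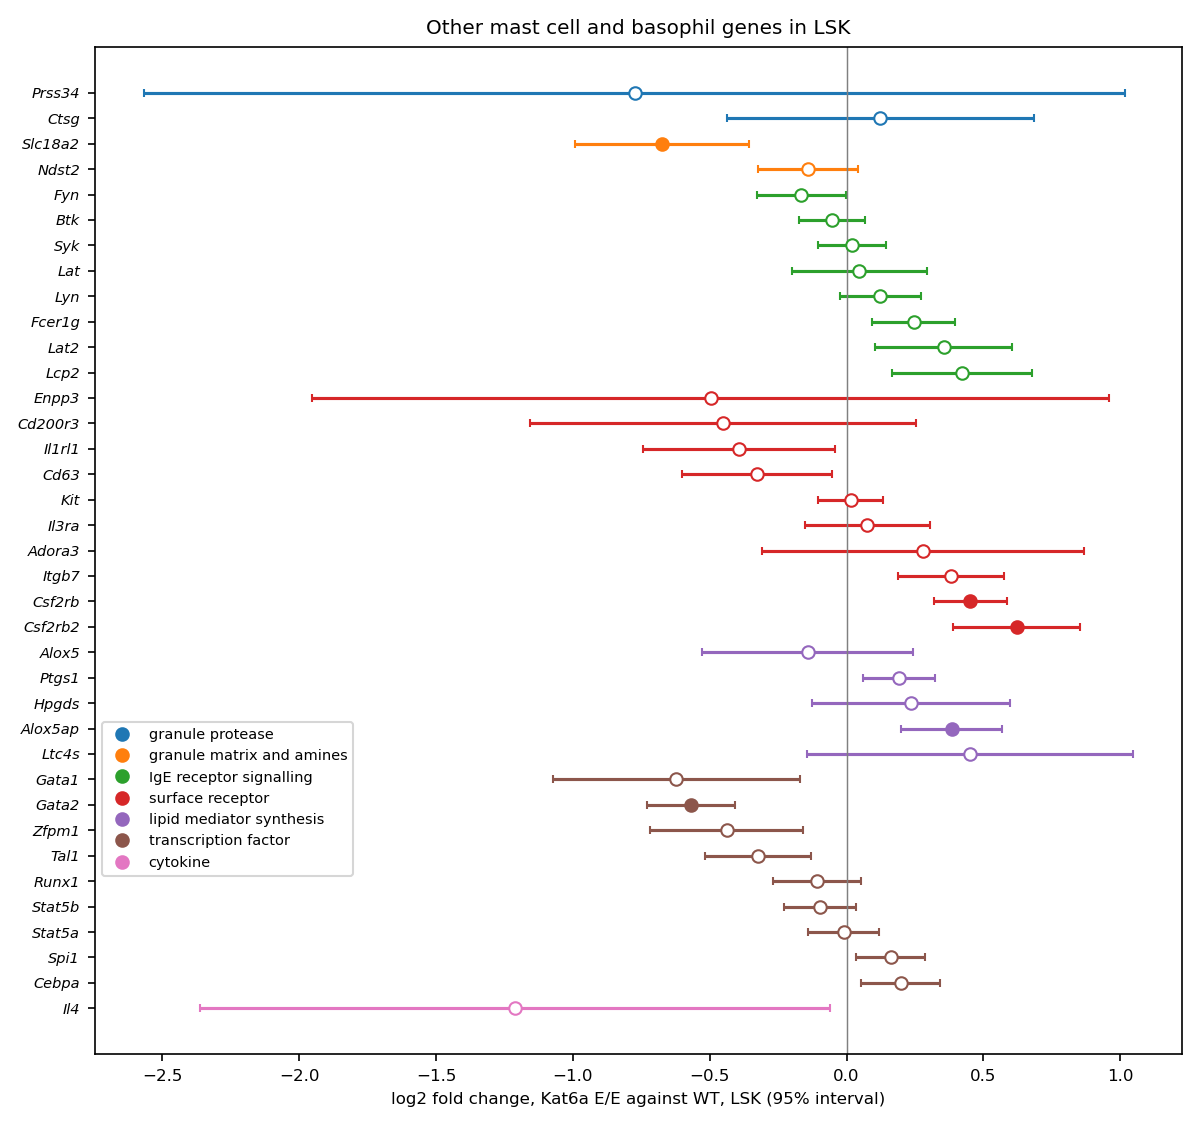
Fitted log2 fold change of Kat6aE/E against WT in LSK (horizontal axis) with its 95% interval for the 37 other genes tested, grouped by role. Filled points have an adjusted p under 0.05: Gata2 and Slc18a2 below 0, and Csf2rb, Csf2rb2 and Alox5ap above 0.

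In the other roles the gene with the smallest p did not pass. These were the basophil protease Prss34, with a log2 fold change of -0.77 (adjusted p = 0.789 in limma), the adaptor Lcp2 of IgE receptor signalling at 0.42 (adjusted p = 0.115) and the cytokine Il4 at -1.21 (adjusted p = 0.364). Against Kat6bE/E, 4 of the 37 were lower in Kat6aE/E, beside 0.941% of all genes, and 7 were higher, beside 1.12%. The lower ones were all transcription factors: Gata2 at -0.47 (adjusted p = 0.0198 in limma) and the erythroid and megakaryocytic regulators Gata1 at -1.11 (adjusted p = 0.0423), Tal1 at -0.55 (adjusted p = 0.0203) and Zfpm1 at -0.70 (adjusted p = 0.0358). The levels of Gata1 overlapped, at 30.0 to 131 CPM in Kat6aE/E and 91.1 to 167 CPM in Kat6bE/E. Summed erythroid markers, mostly globin RNA as given above, were at 333 to 3703 CPM and 1185 to 3168 CPM in the same libraries, and overlapped. The summed level of 6 megakaryocyte markers did not overlap, at 46.3 to 75.5 CPM in Kat6aE/E and 96.0 to 149 CPM in Kat6bE/E, with 0 of the 6 at 0 in each library. The part of either marker list in these differences was not tested. The higher ones were Csf2rb at 0.62, Csf2rb2 at 0.76, Fcer1g, the receptor gamma chain, at 0.45, Alox5ap at 0.50, the prostaglandin synthase Ptgs1 at 0.32 and the myeloid regulators Spi1 at 0.40 and Cebpa at 0.45. With 0 surrogate variables 0 of these 11 passed. Over the 8 omissions of 1 library, Csf2rb passed in 8, Csf2rb2 and Spi1 in 5, Gata2, Tal1 and Cebpa in 4, Fcer1g and Alox5ap in 3, Gata1 and Ptgs1 in 2 and Zfpm1 in 1.

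In the double mutant against Kat6bE/E, Tal1 was lower by -0.49 (adjusted p = 0.0476 in limma) beside 0.926% of all genes, and 3 genes were higher beside 0.551% of all genes. The higher genes were Csf2rb at 0.57 (adjusted p = 0.0154), Csf2rb2 at 0.88 (adjusted p = 0.0206) and Ptgs1 at 0.40 (adjusted p = 0.0296) in limma, and with 0 surrogate variables 0 of the 4 passed. Tal1 passed in 0 of the 8 omissions of 1 library and was at -0.145 without double mutant replicate 1, while Csf2rb passed in 7, Csf2rb2 in 6 and Ptgs1 in 5. Of the other 3 comparisons, limma called 0 of the 37 in Kat6bE/E against WT, in the double mutant against WT and in the double mutant against Kat6aE/E. At an unadjusted p under 0.05 there were 7, 11 and 2, beside 364, 896 and 197 of all 13071 genes. edgeR with surrogate variables called 0 in each, edgeR without them 1 in the double mutant against WT, and DESeq2 called 2 in the double mutant against WT and 0 in the other comparisons. The share of all genes called was not taken for edgeR or DESeq2.

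Whole E9.5 embryos were not used to choose the genes and so allow a test, but granulated mast cells form later in development and most members were barely read. Fcer1a, Tpsb2 and Mcpt8 had 0 counts in all 24 embryo libraries, which allows up to 0.129 to 0.365 CPM in each. Cpa3 and Cma1 had 1 count each, Gzmb 5, Ms4a2 61 and Hdc 147. The embryos therefore hold no measurement of Cpa3 against which its LSK difference could be set. Only Srgn and Mitf passed the filter. Xist, an RNA of female cells, was at 527 CPM in Kat6a-/- replicate 2. In Kat6b-/- replicates 2 and 3 it was at 636 and 755 CPM, and in WT embryos at 0 to 0.173 CPM. The paper states that the sequenced embryos were male, and the part of sex in these values was not tested. Kat6b was at 52.0 to 58.3 CPM in Kat6b-/- and 38.2 to 42.6 CPM in WT embryos, so counts per gene do not show this null allele.

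Srgn was low in embryos, at 0.603 ± 0.269 CPM in WT (SD, n = 4), with 171 counts over all 24 libraries. The WT embryos were at 0.778, 0.857, 0.507 and 0.268 CPM and the Kat6a-/- embryos at 0.265, 0.199, 0.313 and 0.656 CPM. The other genotypes had means of 0.550 in Kat6b-/-, 0.510 in Kat6aE/E, 0.334 in Kat6bE/E and 0.442 CPM in the double mutant, and all overlapped WT. The log2 fold changes against WT ran from -0.81 (SE 0.47, adjusted p = 0.401 in limma) in Kat6a-/- to -0.08 (SE 0.46) in Kat6b-/-. The interval for Kat6a-/-, -1.78 to 0.17, shows how little this depth could resolve.

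Mitf was at 5.52 ± 1.46 CPM in WT embryos (SD, n = 4), with 5.02, 5.23, 4.23 and 7.61 CPM in the 4 libraries. Double mutant embryos were at 5.93, 6.88, 6.49 and 7.85 CPM, within and just above that range, and Kat6a-/- embryos at 5.12 to 7.12 CPM. The log2 fold changes were 0.32 (SE 0.16, interval -0.01 to 0.64, adjusted p = 0.286 in limma) in the double mutant, 0.27 (SE 0.16, adjusted p = 0.401 in limma) in Kat6a-/- and between -0.05 and 0.07 in the other 3 genotypes. limma called 0 of the 2 genes in each of the 5 comparisons, 0 had an unadjusted p under 0.05, and edgeR and DESeq2 called 0. The share of all 14183 genes called was 2.64% in Kat6a-/-, 0.508% in Kat6b-/-, 0.275% in Kat6aE/E, 0% in Kat6bE/E and 2.91% in the double mutant. Of the 49 other genes, 31 passed the filter in embryos and limma called 0 in each comparison. In the same order 6, 1, 1, 0 and 3 had an unadjusted p under 0.05. Over all 14183 genes these counts were 2399, 1713, 1421, 626 and 2581.

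**Figure D5:**
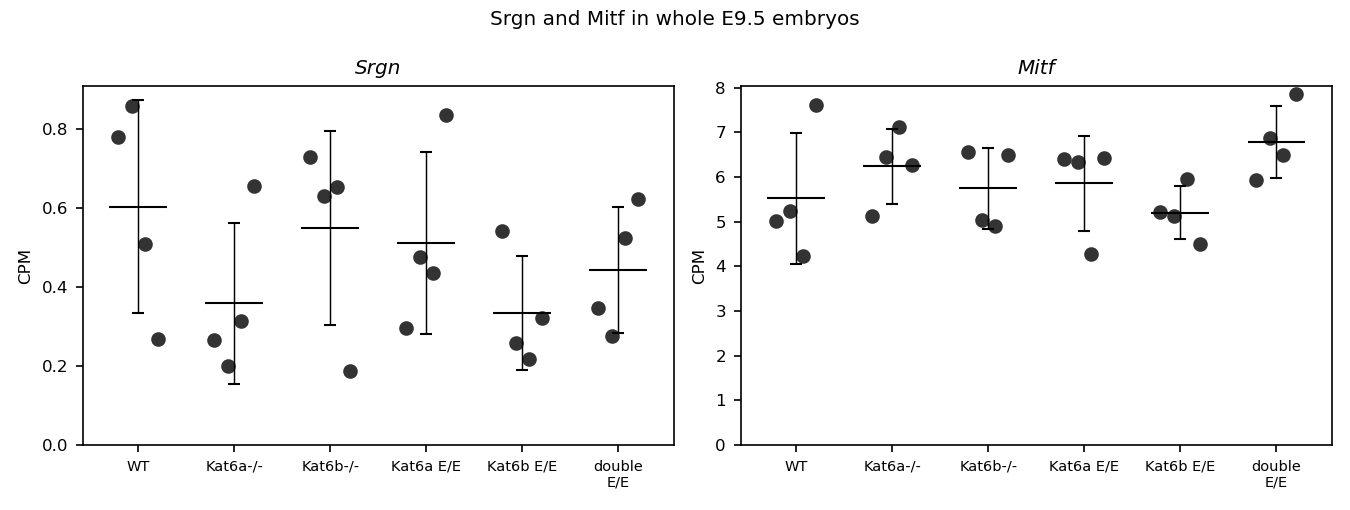
Level in CPM (linear vertical axes from 0) of Srgn and Mitf in the 4 whole E9.5 embryos of each of 6 genotypes, with mean and SD. Every mutant genotype overlaps WT for both genes, with WT at 0.268 to 0.857 CPM for Srgn and 4.23 to 7.61 CPM for Mitf.

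The 5 genes whose log2 CPM was most like that of Cpa3 over the 16 LSK libraries, by Pearson correlation among the 13071 genes tested, were Tdrp (r = 0.82), Rragd (0.81), Ark2n (0.80), Gatm (0.80) and Apoe (0.79), and none of them is a gene of the granule. The 16 points share 4 genotypes and 9 litters, so part of each r is the difference between genotypes. Apoe, which encodes apolipoprotein E, was at 183 to 254 CPM in WT and 105 to 161 CPM in Kat6aE/E libraries, a log2 fold change of -0.80 (SE 0.12). Within genotypes its r fell to -0.07, whereas that of Tdrp was 0.79, at levels of at most 1.11 CPM. Gzmb ranked ninth, at 0.78. Ranked by Spearman correlation, the first 5 genes shared 0 with these 5 and included the B cell marker Ebf1 (0.82).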

How the data were processed

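RNA was sequenced from 16 sorted E14.5 LSK samples and 24 whole E9.5 embryos. Per the study's methods, the authors aligned read pairs to mm39 with Rsubread align and counted them per RefSeq gene with featureCounts (version not given in the sources used here), and they deposited these counts without normalisation. Of 26411 genes, 26359 matched the gene table and 20951 were protein-coding and not Y-linked. These were filtered with filterByExpr, scaled by TMM (edgeR 4.0.16) and fitted per stage with voomLmFit in limma 3.58.1 (R 4.3.3) on genotype with 4 surrogate variables, taking litter as a random effect (correlation 0.33 in LSK, 0.11 in embryos), leaving 13071 and 14183 genes. A call is a Benjamini-Hochberg adjusted p under 0.05 over all genes tested. CPM is a total-based unit, so 1 abundant RNA can lower the others. Lengths for RPKM came from the deposited tables. Of the B cell markers, 1 is not reported here and is left out of their sum, which was chosen after seeing the data.

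The members and lists were chosen with earlier results of these data known. The text names the 10 members, every other listed gene called in an LSK comparison, the one with the smallest p of each role in Kat6aE/E against WT, and the 5 genes most like Cpa3. Alternatives were 0, 2 or 6 surrogate variables, no litter block, the replicate number as a block, edgeR, DESeq2 1.42.0, other size factors, no filter, all gene types, Xist as a covariate, only the 8 libraries compared, and leaving out each library. Fits without the 4 LSK libraries with fewer genes detected, and with a covariate for how many genes were detected, were chosen after seeing the data. Gene positions are from GRCm39 (GENCODE vM39) and promoters from RefSeq GRCm38.p6, and none was converted between builds. Depths are in the text, and limits from a count of 0 cover counting error only.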

Additional observations from a re-analysis of the deposited data

Results flagged for a closer look

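Of 48 groups of 4 libraries examined, 8 held a library whose gap to the nearest other took up most of the group's range, where chance gives about 1 in 20. In 3 of the 8 the other libraries were all at 0, which gives such a gap by construction. In LSK Kat6aE/E these were replicate 2 for Tpsb2 (7.91 CPM, others 0 to 1.03) and for Mitf (1.52 CPM, others 4.71 to 4.90), and replicate 3 for Gzmb (0.318 CPM, others 0 to 0.0368). Tpsb2 in Kat6bE/E replicate 2 was at 1.44 CPM, with the others at 0.203 to 0.342. Double mutant replicate 1 was the only library of its group above 0 for Cma1 (0.108 CPM), Tpsb2 (0.270 CPM) and Gzmb (0.0539 CPM), and as the libraries at 0 allow up to 0.116 to 0.256 CPM, Cma1 and Gzmb there cannot be told apart from them. In embryos, Mitf in Kat6aE/E replicate 3 was at 4.27 CPM, with the others at 6.34 to 6.43.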

How the results depend on the processing

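LSK values chose Cpa3 and the other members, so their calls in this section describe the processing only, and nothing is read from them. Cpa3 was lower in Kat6aE/E than in WT in all 16 alternatives that gave a fit, at -1.06 to -0.92 on the log2 scale. It was called in 15, the exception being edgeR without surrogate variables (-0.92). In the double mutant against WT it became called with 2 (-1.26) or 6 (-1.18) surrogate variables, edgeR with (-1.096) or without them (-0.91), DESeq2 (-1.09) and without the 4 libraries with fewer genes detected with 2 surrogate variables (-1.22), each making 1 member called. Without the 4 libraries the double mutant is 1 library, so its spread is that of the other groups and the call has no replicate check. Against Kat6bE/E the double mutant lost the call, leaving 0 members, with 0 surrogate variables (-0.94), edgeR without them (-0.81), genes detected as a covariate (-1.0005), without the 4 libraries and with 0 surrogate variables (-1.15) and with only the 8 libraries compared (-0.89). Kat6aE/E against Kat6bE/E lost it, leaving 0, with 0 surrogate variables (-0.84), edgeR without them (-0.82), genes detected (-0.85) and only 8 libraries (-0.85). Small differences near 0 turned: the double mutant against Kat6aE/E was 0.011 in edgeR without surrogate variables, and the departure from additivity -0.0059 with 2 surrogate variables and -0.089 without the 4 libraries and with 0 surrogate variables. Members called against WT in Kat6aE/E were 2 with 6 surrogate variables and 0 in edgeR without them, and against Kat6bE/E 2 in DESeq2 in both groups, 2 in Kat6aE/E with 6 surrogate variables and 2 without the 4 libraries with 2 surrogate variables.

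Counts of the other genes moved more. The share of all genes called was taken only in limma with 4 surrogate variables and the litter block. Nothing is therefore read from these counts or from those of the other genes below. Against WT the 5 in Kat6aE/E became 0 with 0 surrogate variables, 3 with 2, 2 without the litter block, 2 in edgeR with 4, 0 in edgeR without surrogate variables and 0 with genes detected, and the 0 in the double mutant became 1 in edgeR without surrogate variables and 2 in DESeq2. Against Kat6bE/E the 4 in the double mutant became 0 with 0 surrogate variables, 7 with 2, 9 in edgeR with 4, 1 in edgeR without surrogate variables, 13 in DESeq2, 0 with genes detected, 0 or 1 without the 4 libraries (0 or 2 surrogate variables) and 0 with only 8 libraries. The 11 in Kat6aE/E became 0 with 0 surrogate variables, in edgeR without them, with genes detected and with only 8 libraries, and 4 without the 4 libraries with 0 surrogate variables. The cause was not tested.

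Replicate numbers did not pair the samples (correlation of same-numbered deviations -0.43 to 0.35 in LSK and -0.23 to 0.31 in embryos). With the replicate block Cpa3 was -1.05 in Kat6aE/E against WT, still called, and -0.95 in the double mutant against Kat6bE/E, not called, leaving 0 members, and the other genes called were 0, 0 and 10 for Kat6aE/E against WT, the double mutant against Kat6bE/E and Kat6aE/E against Kat6bE/E.

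Leaving out each library in turn gave Cpa3 -1.07 to -0.96 in Kat6aE/E against WT (not called without Kat6aE/E replicate 1, at -1.03), -0.35 to -0.11 in Kat6bE/E, -1.25 to -1.05 in the double mutant (called in 4 of 8), -0.25 to -0.04 against Kat6aE/E, -1.06 to -0.81 against Kat6bE/E (not called without Kat6bE/E replicate 1, at -0.85), -0.87 to -0.69 in Kat6aE/E against Kat6bE/E (not called without Kat6aE/E replicate 1 or 4) and -0.016 to 0.20 for the departure. Members called ran from 0 to 1, 0 to 3, 0 to 1, 0 to 4 and 0 to 2 for Kat6aE/E against WT and the double mutant against WT, Kat6aE/E and Kat6bE/E, then Kat6aE/E against Kat6bE/E, and other genes from 0 to 5, 0 to 10, 0 to 5, 0 to 16 and 1 to 11, with 0 to 1 for the departure. The highest counts of the double mutant came without its replicate 1, the 1 library of that group with many genes detected. In embryos Mitf in Kat6b-/- turned to -0.012 with 2 surrogate variables and ran from -0.059 to 0.21 over the omissions, as did Srgn in Kat6b-/- (-0.51 to 0.15) and Mitf in Kat6bE/E (-0.13 to 0.13), none called. Spearman in place of Pearson shared 0 of the 5 genes most like Cpa3. Within the litter of WT and Kat6aE/E fetuses Cpa3 differed by -1.03. Gzmb, Cma1, Tpsb2 and Fcer1a are limited by depth.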

Other observations

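Cpa3 made up 8.01% to 10.3% of the summed CPM of the 10 members in the 8 LSK libraries without Kat6aE/E, and 3.15% to 6.25% in the 8 with it. Among the 12 promoters of the 9 members in the table, CANNTG was present in 9 (72.3% of all promoters), TGATAA in 2 (9.05%), GAGGAA in 2 (28.3%), CATGTG in 1 (14.2%) and CACGTG in 0 (7.15%), on either strand of 300 bases. CATGTG and CACGTG are forms of CANNTG.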
